A study of Homo sapiens with 6 samples.

Results

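Endothelial-to-mesenchymal transition is the process in which endothelial cells, the lining of blood vessels, lose junctions and gain a migratory, contractile or matrix-producing state. It is known to be driven by TGFβ signaling through the zinc finger and bHLH transcription factors SNAI1, SNAI2, TWIST1, ZEB1 and ZEB2. Its usual readouts are N-cadherin (CDH2), the contractile proteins smooth muscle α-actin (ACTA2) and transgelin (TAGLN), and the PDGF receptors PDGFRA and PDGFRB. These 10 genes were taken by symbol from a deposited table of 58364 rows. Each stands on 1 row, and all 10 were among the 15895 genes tested, which have a mean of at least 0.5 FPKM (fragments scaled to transcript length and to the mapped fragments of the library, so a level per length).

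RNA was sequenced from H1 human embryonic stem cells at day 8 of hematopoietic differentiation, in 2 wild-type (WT) libraries and 4 libraries labelled as MSX2 knockout (MSX2_KO). The protocol in the labels takes every culture through activin A and BMP4 and then VEGF and bFGF, and it speaks of cells with or without HAND1 overexpression without assigning this to any library. MSX2 is a homeobox transcription factor. The knockout was made with CRISPR/Cas9 guides against its second exon, and the 4 libraries are replicates 1 and 2 of each of 2 clones, 1# and 2#, named here as in the columns of the table. The labels give each replicate number its own set letter in all 3 lines and do not say what it stands for. They name a CD31+ fraction for the MSX2_KO libraries only, while the text of the study names it for both genotypes.

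MSX2 RNA, at chr5:174724533-174730893 of GRCh38, was 3.64 and 1.44 FPKM in WT replicates 1 and 2, 18.0 and 5.62 in those of 1# and 31.8 and 6.69 in those of 2#. The log2 difference was 1.99, with a limma adjusted p of 0.31 without and 0.011 with the replicate block described below, so the level was not lower in any library labelled MSX2_KO than in WT of the same number. A level summed over the gene does not read the edited bases, so it checks neither the edit nor the labels, and the directions below are given as the labels name the libraries. The endothelial markers were present throughout: PECAM1, which encodes CD31, was 258 and 218 FPKM in WT and 186 to 230 in MSX2_KO. The leukocyte marker PTPRC did not pass 0.115 FPKM, and the smooth muscle myosin MYH11 did not pass 0.0495 FPKM in any library. Relative depth, read from the steps of the lowest values, was 1.01 to 1.18 times that of WT replicate 1, and the number of reads is unknown.

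TAGLN and PDGFRB were higher in the libraries labelled MSX2_KO, ACTA2 was higher by a small amount, and ZEB1 was lower, once genotype and replicate number were separated. The other 6 genes were not called for genotype, and 4 of them (TWIST1, ZEB2, CDH2 and PDGFRA) were called for replicate number. The genotype calls of ACTA2 and ZEB1 were lost without any 1 library, WT or MSX2_KO. That of PDGFRB was lost without WT replicate 1 and without replicate 2 of 2#. With no filter on low values, no genotype call among these genes held. Differences were tested with limma on log2(FPKM + 1) over all 15895 genes, with Benjamini-Hochberg adjustment and a threshold of adjusted p under 0.05. All log2 differences below are on that scale, which understates changes of low genes. WT, 1# and 2# deviated together by replicate number, so the genotype difference was fitted both ways, with and without a block for that number. Nothing in the labels says that the replicates came from separate cultures, and the 4 MSX2_KO libraries stand for 2 clones. The genotype fits, with and without the block, took the 4 as independent libraries. Their p-values therefore set a difference against the spread between these libraries and do not speak for other clones or cultures.

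Without the block, 1 of the 10 genes was called, beside 1.28% of all genes tested (153 higher and 51 lower). With the block, 3 of 10 were called higher, beside 6.11% of all genes, and 1 of 10 lower, beside 3.74%. The median log2 difference between genotypes was 0.34 over the 10 genes and 0.0081 over all genes tested. In 3 of 10 genes (SNAI1, TAGLN and PDGFRB) all 4 MSX2_KO libraries lay above both WT libraries, beside 12.1% of all genes. In 0 of 10 did all 4 lie below both WT libraries, beside 9.19% of all genes. With the block and the clones as separate groups in 1 fit of all 6 libraries, 1# against WT gave 1 called gene of 10, beside 3.46% of all genes, and 2# against WT 1 of 10, beside 3.71%. TAGLN was that gene in both clones.

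**Figure D1:**
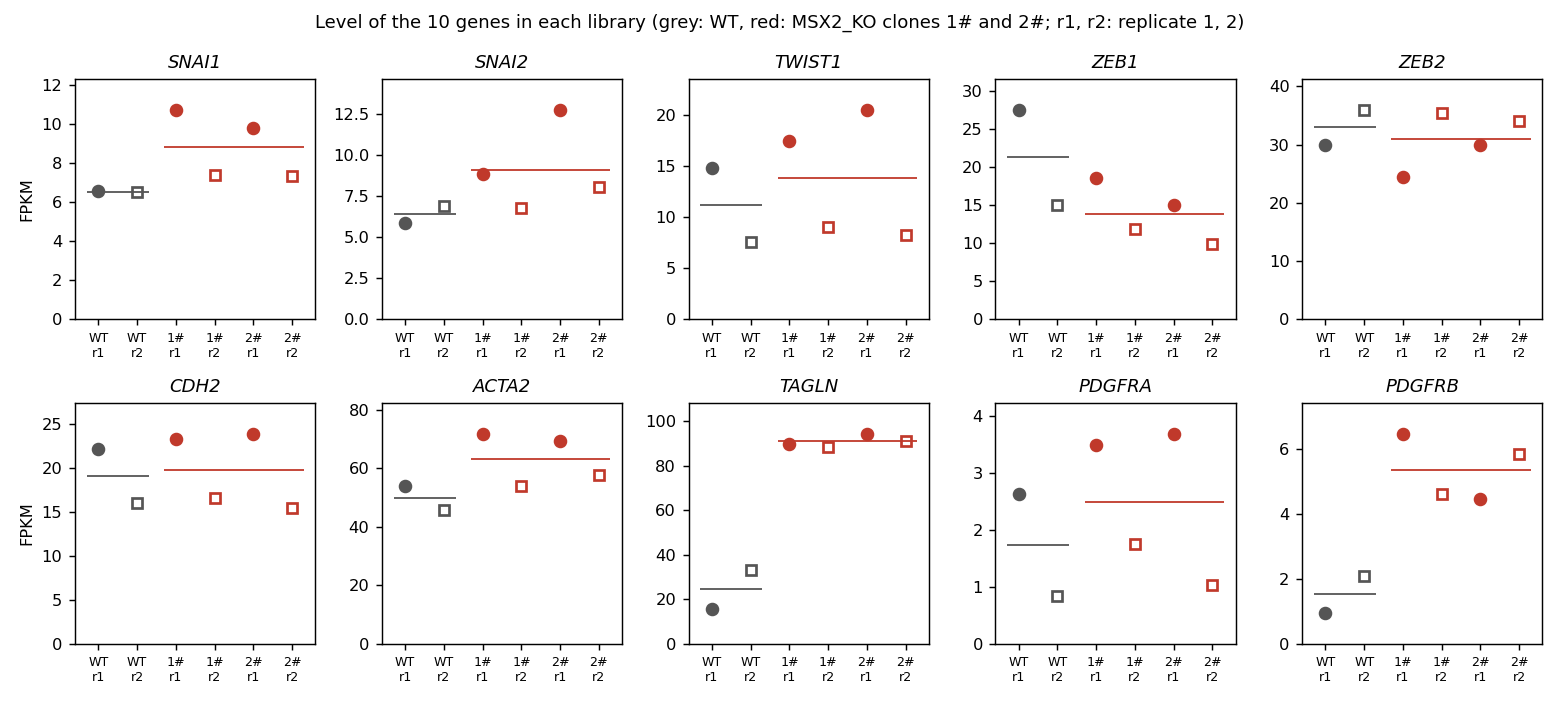
Level of the 10 genes in FPKM (vertical axes, from 0) in each of the 6 libraries, with WT in grey and the MSX2_KO clones in red. Filled circles are replicate 1, open squares replicate 2, and lines the group means. TAGLN and PDGFRB separate the genotypes, while TWIST1, CDH2 and PDGFRA separate replicate 1 from replicate 2 in every line.

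ACTA2 and TAGLN are the contractile readouts among the 10. The serum response factor, which drives many contractile genes, binds the CArG box, CC and GG around a run of A and T. The bases before the smooth muscle start site of ACTA2 are shown because 2 such boxes, each with 1 other letter in the middle run (capitals), lie in them. The window is chr10:88952774-88953023 of GRCh38.p14, minus strand, read from RefSeq, and it holds no annotated exon.

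ACTA2: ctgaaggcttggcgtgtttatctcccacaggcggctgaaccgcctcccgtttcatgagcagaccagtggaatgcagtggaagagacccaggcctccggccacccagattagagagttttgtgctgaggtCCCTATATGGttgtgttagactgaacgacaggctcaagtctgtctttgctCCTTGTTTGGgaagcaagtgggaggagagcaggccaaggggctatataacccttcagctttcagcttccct

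The boxes start 121 and 71 bases before the start site. A box of this kind was found in 5.96% of the 35116 promoter windows searched on both strands, and a box with no other letter in 1.16%. The window before the other ACTA2 start site holds neither kind. TAGLN is named without sequence.

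TAGLN, an actin-binding protein of smooth muscle and an early marker of the contractile state, lies at chr11:117199321-117204782 on the plus strand. It was 15.8 and 33.1 FPKM in WT replicates 1 and 2, 90.0 and 88.3 in those of 1#, and 94.2 and 91.4 in those of 2#. All 4 MSX2_KO libraries lay far above both WT libraries and close to each other, while the WT replicates lay farther apart than the 4 MSX2_KO libraries. Whether more cells of a type or more RNA per cell lies behind a higher level cannot be told apart in bulk RNA. The means were 24.4 ± 12.2 (SD, n = 2) in WT and 91.0 ± 2.50 (SD, n = 4) in MSX2_KO. The log2 difference was 1.94 ± 0.26 (SE, limma adjusted p = 0.030), and with the block the adjusted p was 0.0056. In 1# it was 1.91 and in 2# 1.97 (adjusted p with the block 0.032 and 0.028). Without the block the call was lost when any 1 MSX2_KO library was left out (adjusted p 0.082 to 0.114), and with the block it held in each of the 6 fits that left out a library (0.0063 to 0.032). With no filter on low values it was lost both without the block (0.085) and with it (0.054).

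The exons of TAGLN overlap those of PCSK7 on the other strand, and the use of strand in counting is not given in the sources used here. PCSK7 averaged 27.2 FPKM in WT and 24.0 in MSX2_KO. In WT, TAGLN was 1.02 higher on the log2 scale in replicate 2 than in replicate 1, and in 1# and 2# that difference was -0.027 and -0.044. The genotype difference was accordingly 2.44 and 2.50 within replicate 1 and 1.39 and 1.44 within replicate 2. The limma test of that difference, the interaction of genotype and replicate number, gave -1.06 and an adjusted p of 0.22. Of the 10 genes, 0 were called for this interaction, beside 0.0189% of all genes (3 lower, 1817 at an unadjusted p under 0.05).

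ACTA2, at chr10:88935074-88991339 on the minus strand, was 53.9 and 45.7 FPKM in WT, 71.6 and 53.8 in 1# and 69.4 and 57.7 in 2#. The groups touch, since replicate 2 of 1# lay just under WT replicate 1. Against the WT library of the same number, all 4 MSX2_KO libraries were higher, by 0.23 to 0.40 on the log2 scale. The log2 difference was 0.33 ± 0.16 (SE, limma adjusted p = 0.51), and with the block it was 0.33 ± 0.069 with an adjusted p of 0.035. The blocked call was lost in all 6 fits that left out 1 library (adjusted p 0.066 to 0.145). The call was also lost with the clones as separate groups (0.081). Exons of FAS overlap ACTA2 on the other strand, and FAS stood at 3.81 to 5.54 FPKM, far below ACTA2.

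Cardiac α-actin, ACTC1, is a paralog of ACTA2 and is known in early mesoderm and heart. It was 2.47 and 1.57 FPKM in WT, 24.2 and 10.5 in 1# and 49.5 and 7.67 in 2#. Its log2 difference of 2.66 was called with the block (adjusted p = 0.013) and not without it (0.17). The coding sequences of ACTC1 and ACTA2 are identical at 85.5% of 1134 bases, and they share no run of 50 bases. The skeletal and enteric muscle actins ACTA1 and ACTG2 were at or under 0.181 and 0.706 FPKM. The cytoplasmic actins ACTB and ACTG1 were far higher, and their log2 differences between genotypes were -0.14 and -0.071, neither of them called.

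Of 23 smooth muscle contractile genes, 17 were tested, and 1 was higher and 1 lower without the block, against 6 higher and 3 lower with it. Of all genes tested, 1.28% were called either way without the block, and 6.11% higher and 3.74% lower with it. The list's median log2 difference was 0.081. CNN1 (calponin) followed TAGLN, with 1.55 and 2.16 FPKM in WT and 6.91 to 7.55 in MSX2_KO (log2 difference 1.53, limma adjusted p = 0.015). SMTN (smoothelin) went the other way, from 190 and 130 FPKM in WT to 67.5 to 81.0 in MSX2_KO (-1.08, 0.042). The definitive marker MYH11 and the cofactor MYOCD did not pass 0.513 FPKM in any library. The filamin FLNA and PDLIM7, the highest of the list, had log2 differences of 0.029 and 0.081 and were not called.

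The PDGF receptors are tyrosine kinases of mesenchymal cells. PDGFRB binds mainly PDGF-B, which endothelial cells secrete to recruit pericytes. PDGFRA also binds PDGF-A. The bases before a start site of each receptor are shown side by side, because 1 receptor, PDGFRB, was called for genotype and PDGFRA was not. Capitals mark the letters CCAAT, searched on both strands. The windows are chr5:150155873-150156095, minus strand, for PDGFRB, cut where the first annotated exon begins, and chr4:54233710-54233959, plus strand, for PDGFRA, both from RefSeq on GRCh38.p14.

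PDGFRB: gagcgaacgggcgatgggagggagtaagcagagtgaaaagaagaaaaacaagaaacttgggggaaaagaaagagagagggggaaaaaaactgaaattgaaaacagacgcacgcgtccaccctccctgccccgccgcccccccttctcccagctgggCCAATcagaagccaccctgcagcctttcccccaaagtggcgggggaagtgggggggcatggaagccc

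PDGFRA: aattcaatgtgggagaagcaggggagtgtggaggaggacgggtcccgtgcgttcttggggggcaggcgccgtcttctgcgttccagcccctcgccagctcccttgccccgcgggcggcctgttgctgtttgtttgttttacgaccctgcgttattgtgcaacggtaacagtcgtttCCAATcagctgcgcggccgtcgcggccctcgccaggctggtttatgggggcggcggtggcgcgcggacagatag

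Both carry 1 CCAAT, 94 bases before the start site in PDGFRB and 74 in PDGFRA, and 32% of all promoter windows hold it. The window before the other PDGFRA start site holds 0. The core letters bound by MSX homeodomains, TAATTG on either strand, are in neither window. They are in the windows of the other PDGFRA start site and of ZEB2, and in 6.7% of all windows.

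PDGFRB, at chr5:150113837-150155872 on the minus strand, was 0.948 and 2.10 FPKM in WT, 6.46 and 4.62 in 1# and 4.45 and 5.85 in 2#. All 4 MSX2_KO libraries lay above both WT libraries, at low absolute levels. The means were 1.53 ± 0.816 (SD, n = 2) and 5.35 ± 0.966 (SD, n = 4). The log2 difference of 1.36 ± 0.25 (SE) missed the threshold without the block (limma adjusted p = 0.067) and passed it with the block (0.017). With the block it was 1.40 in 1# and 1.31 in 2# (adjusted p 0.064 and 0.072). The blocked call was lost without WT replicate 1 (0.118), without replicate 2 of 2# (0.063) and with no filter (0.094).

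PDGFRA, at chr4:54229097-54298247 on the plus strand, was 2.63 and 0.845 FPKM in WT, 3.48 and 1.75 in 1# and 3.68 and 1.04 in 2#. Replicate 1 was the higher one in all 3 lines, and the genotypes overlap. The log2 difference between genotypes was 0.35 ± 0.16 (SE, limma with the block, adjusted p = 0.24), and that between replicates 2 and 1 was -0.96 ± 0.15 (adjusted p = 0.0065). The difference in response between the receptors was not tested.

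PDGFB and PDGFA, which are among the ligands of these receptors, were higher as well. PDGFB was 16.2 and 24.0 FPKM in WT and 60.2 to 82.5 in MSX2_KO (log2 difference 1.85, limma adjusted p = 0.015). PDGFA was 4.07 and 3.34 FPKM in WT and 8.58 to 15.1 in MSX2_KO (1.38, adjusted p 0.053 without and 0.0045 with the block). Of 6 tested PDGF ligands and related receptors these were the 2 called with the block, beside 6.11% of all genes called higher. PDGFC, PDGFD, KIT and CSF1R were not called. Among 7 tested pericyte genes 3 were called higher with the block, beside 6.11% of all genes, and 0 without it. The proteoglycan CSPG4 (NG2) was 0.762 and 0.902 FPKM in WT and 4.04 to 10.3 in MSX2_KO (log2 difference 2.01, adjusted p with the block 0.0073). ANPEP and MCAM had log2 differences of 0.64 and 0.54 (0.0071 and 0.026). RGS5, the highest pericyte gene, did not separate the genotypes, with 259 and 310 FPKM in WT and 271 to 322 in MSX2_KO.

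**Figure D2:**
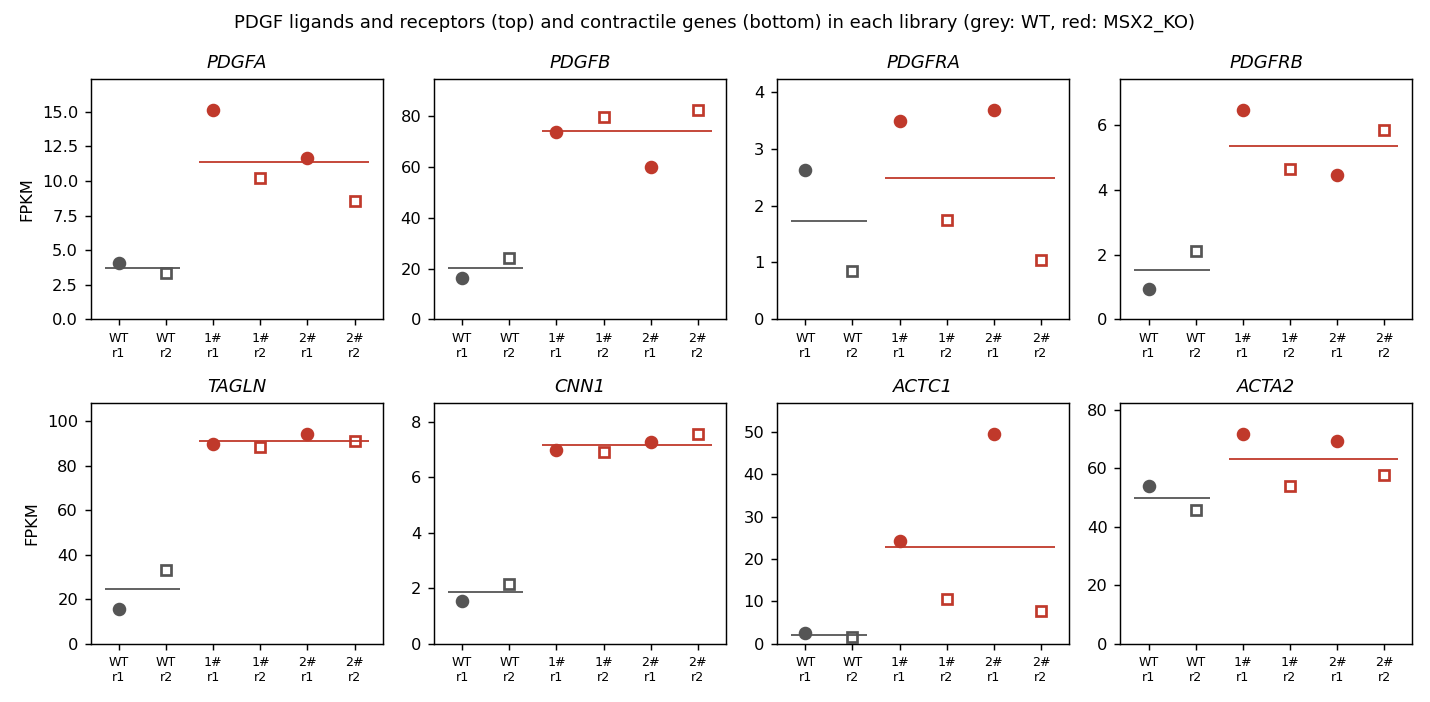
PDGF ligands and receptors (top row) and contractile genes (bottom row) in FPKM (vertical axes, from 0) in each library, with WT in grey, MSX2_KO in red, filled circles for replicate 1, open squares for replicate 2 and lines for group means. PDGFA, PDGFB, PDGFRB, TAGLN, CNN1 and ACTC1 were higher in all 4 MSX2_KO libraries than in both WT libraries, and PDGFRA and ACTA2 overlapped. Such a separation was found in 12.1% of all genes tested. The contractile genes SMTN, called lower, and FLNA and PDLIM7, not called, are not drawn.

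Of the 5 transcription factors, 0 were called higher with the block, beside 6.11% of all genes, and 1, ZEB1, lower, beside 3.74%. ZEB1, a zinc finger repressor of epithelial genes at chr10:31318495-31529814 on the plus strand, was 27.5 and 15.1 FPKM in WT, 18.5 and 11.9 in 1# and 15.1 and 9.89 in 2#. Within each replicate number WT was the highest, but WT replicate 2 lay at the level of replicate 1 of 2# and under that of 1#. The log2 difference was -0.56 ± 0.31 (SE, limma adjusted p = 0.59) and, with the block, -0.56 ± 0.13 (adjusted p = 0.048). The call is at the edge, since it was lost in all 6 fits that left out 1 library (0.065 to 0.243). The antisense gene ZEB1-AS1 shares exon bases with ZEB1 and averaged 15.5 FPKM in WT and 11.2 in MSX2_KO. Without strand, reads in the shared bases cannot be assigned to either gene. Their part in the ZEB1 level was not tested.

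ZEB2, its close relative at chr2:144364364-144524583 on the minus strand, was 30.0 and 35.9 FPKM in WT, 24.5 and 35.4 in 1# and 30.0 and 34.1 in 2#. The genotypes overlap, although replicate 1 of 1# lay below both WT libraries (log2 difference -0.094 ± 0.099 SE, limma with the block, adjusted p = 0.60). Replicate 2 was the higher one in each line. ZEB2 exceeded ZEB1 in all 6 libraries, from 1.09 times in WT replicate 1 to 3.45 times in replicate 2 of 2#.

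SNAI1, which represses the cadherin gene CDH1 and lies at chr20:49982999-49988886 on the plus strand, was 6.56 and 6.53 FPKM in WT, 10.7 and 7.40 in 1# and 9.82 and 7.31 in 2#. All 4 MSX2_KO libraries lay above the WT pair, yet the log2 difference of 0.36 ± 0.13 (SE, limma with the block) did not pass (adjusted p = 0.14, and 0.57 without the block). SNAI2, at chr8:48917604-48921740 on the minus strand, was 5.89 and 6.92 FPKM in WT, 8.86 and 6.77 in 1# and 12.8 and 8.09 in 2#. Replicate 2 of 1# lay within the WT range, and the log2 difference of 0.42 ± 0.21 (SE) was not called (limma with the block, adjusted p = 0.26).

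TWIST1, a bHLH factor of mesoderm and mesenchyme at chr7:19020991-19117672 on the minus strand, was 14.8 and 7.57 FPKM in WT, 17.4 and 9.01 in 1# and 20.5 and 8.27 in 2#. Replicate 1 was the higher one in WT and in both clones, and the genotypes overlap. The log2 difference between genotypes was 0.25 ± 0.11 (SE, limma with the block, adjusted p = 0.20) and that between replicates 2 and 1 was -0.99 ± 0.10 (adjusted p = 0.0019).

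CDH2, the N-cadherin gene at chr18:27950966-28177446 on the minus strand, was 22.2 and 16.0 FPKM in WT, 23.3 and 16.5 in 1# and 23.8 and 15.5 in 2#. Within each replicate number the genotypes lay close together. The log2 difference between genotypes was 0.044 ± 0.079 (SE, limma with the block, adjusted p = 0.77), and with the libraries rescaled to the same sum its sign turned (-0.014). Between replicates 2 and 1 it was -0.50 ± 0.074 (adjusted p = 0.0051).

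Replicate number set 6 of the 10 genes apart. In replicate 2, 5 of 10 were called lower (TWIST1, ZEB1, CDH2, ACTA2 and PDGFRA), beside 18.9% of all genes, and 1 of 10 was called higher (ZEB2), beside 15.6%. The values were -0.66 ± 0.12 (SE, limma adjusted p = 0.010) for ZEB1, -0.30 ± 0.065 (0.016) for ACTA2 and 0.31 ± 0.093 (0.043) for ZEB2. The ZEB2 call was lost without any 1 library other than replicate 1 of 2# (adjusted p 0.087 to 0.134), with 3 groups (0.064) and with no filter (0.10). The ACTA2 call was lost without any 1 MSX2_KO library (0.052 to 0.064). Both terms were called in 2 genes, ZEB1 and ACTA2, genotype alone in TAGLN and PDGFRB, and neither in SNAI1 and SNAI2. In 5 genes the replicate difference was the larger of the 2 in size. These classes were not counted over all genes tested, so they are a description of the 10 genes only.

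**Figure D3:**
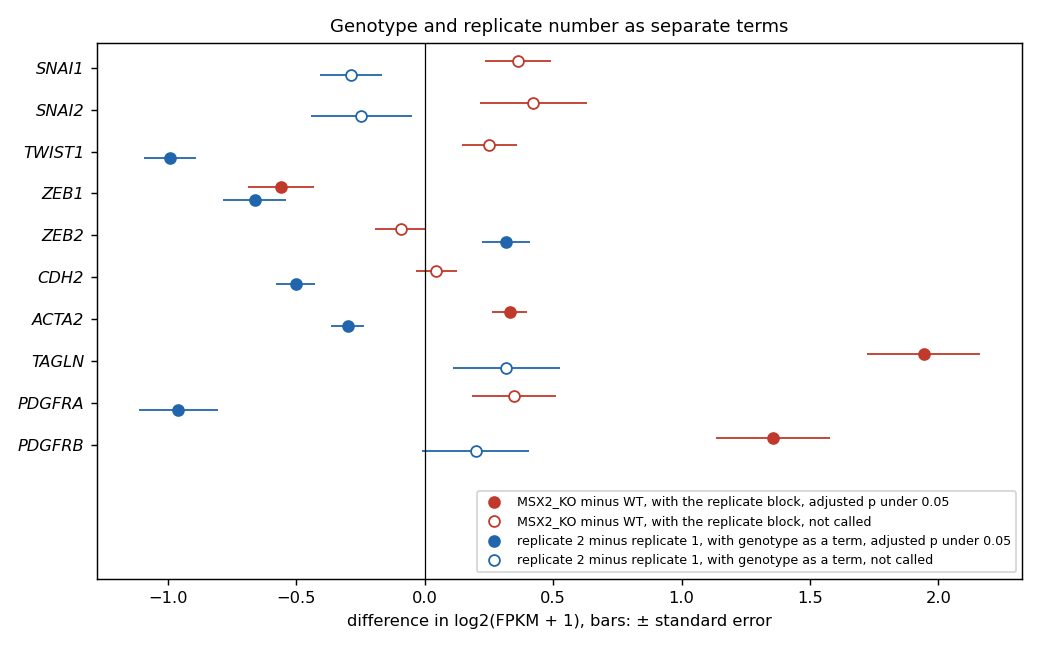
Difference in log2(FPKM + 1) (horizontal axis) of each of the 10 genes between genotypes, with the replicate block (red), and between replicate numbers, with genotype as a term (blue), with bars for ± 1 standard error. Filled points passed an adjusted p of 0.05. TAGLN at 1.94 and PDGFRB at 1.36 stand to the right by genotype, and TWIST1 at -0.99 and PDGFRA at -0.96 to the left by replicate number.

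Within replicate numbers, all 4 MSX2_KO libraries were above the WT library of the same number for 6 of the 10 genes (SNAI1, TWIST1, ACTA2, TAGLN, PDGFRA and PDGFRB), beside 23.6% of all genes, and below it for 1 of 10 (ZEB1), beside 21.4%. For SNAI1 the differences were 0.63 and 0.52 within replicate 1 and 0.16 and 0.14 within replicate 2, and for PDGFRB 1.94 and 1.49 against 0.86 and 1.14. Between the clones, with the block, no gene was called, with 530 genes at an unadjusted p under 0.05. The largest clone differences among the 10 were 0.35 ± 0.22 (SE) for SNAI2 and -0.26 ± 0.13 (SE) for ZEB1, 2# minus 1#.

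**Figure D4:**
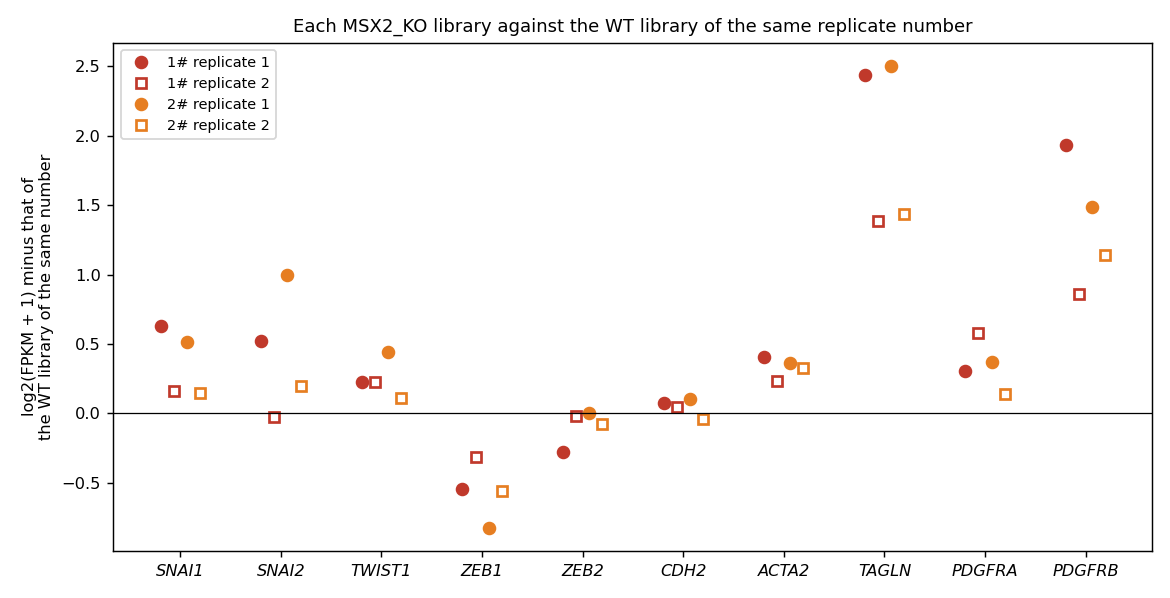
Log2(FPKM + 1) of each MSX2_KO library minus that of the WT library with which it shares a replicate number (vertical axis) for the 10 genes, with 1# in red, 2# in orange, filled circles for replicate 1 and open squares for replicate 2. TAGLN ranged from 1.39 to 2.50 and ZEB1 from -0.82 to -0.31, and CDH2 stayed between -0.041 and 0.10.

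By mean level per transcript length, the order in WT was ACTA2 (49.8 FPKM), ZEB2 (33.0), TAGLN (24.4), ZEB1 (21.3), CDH2 (19.1), TWIST1 (11.2), SNAI1 (6.54), SNAI2 (6.40), PDGFRA (1.74) and PDGFRB (1.53). In MSX2_KO it was TAGLN (91.0), ACTA2 (63.1), ZEB2 (31.0), CDH2 (19.8), ZEB1 (13.9), TWIST1 (13.8), SNAI2 (9.12), SNAI1 (8.81), PDGFRB (5.35) and PDGFRA (2.49). In WT the libraries of the neighbours ZEB2, TAGLN, ZEB1 and CDH2 overlap in turn, and so do those of SNAI1 and SNAI2 and of the receptors. In MSX2_KO the libraries of the neighbours TAGLN and ACTA2, ACTA2 and ZEB2, ZEB2 and CDH2, SNAI1 and PDGFRB, and PDGFRB and PDGFRA do not overlap. CDH2, ZEB1 and TWIST1 overlap one another, and so do TWIST1 and SNAI2, and SNAI2 and SNAI1. TAGLN stood at 0.293 and 0.724 of the ACTA2 level in WT replicates 1 and 2 and at 1.26 to 1.64 times it in MSX2_KO.

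Other genes of the pathway were counted by list, here and below. Of all genes tested, 6.11% were called higher and 3.74% lower with the block, and 1.28% either way without it. Among 12 tested factors of the same transition, 0 were called without the block, and with it 0 were higher and 3 lower. PRRX2 fell from 18.4 and 19.2 FPKM in WT to 4.21 to 7.63 in MSX2_KO (log2 difference -1.55, limma adjusted p with the block 0.0052), FOXC1 by 1.12 (0.0080) and HMGA2 by 0.96 (0.023). PRRX2 and FOXC1 are mesenchymal transcription factors, and HMGA2 is a chromatin protein. Of 25 tested matrix and surface genes, 4 were higher and 1 lower without the block, and 8 and 2 with it. COL1A1, the α1 chain of type I collagen, was 27.7 and 55.9 FPKM in WT and 193 to 206 in MSX2_KO (2.30, adjusted p = 0.015). CD44, a hyaluronan receptor, had a log2 difference of 1.75 (0.017) and MMP2, a gelatinase, 0.60 (0.040). NT5E (CD73) was lower, at 42.5 and 37.2 FPKM in WT and 7.93 to 11.2 in MSX2_KO (-2.03, 0.010). Vimentin (VIM), among the highest of the list, had a log2 difference of -0.16 and was not called. The collagens did not move together. COL1A2, the α2 chain of type I collagen, was 144 and 148 FPKM in WT and 130 to 156 in MSX2_KO (-0.066, not called). COL5A1 was higher, with a log2 difference of 1.01, and COL5A2 lower, with -1.20 (limma adjusted p with the block 0.0059 and 0.0073).

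TGFβ is the best known inducer of this transition. Among 16 tested ligands, receptors and SMADs, 1 was lower without the block, TGFBR3 (betaglycan), at 35.4 and 18.1 FPKM in WT and 1.96 to 6.01 in MSX2_KO (log2 difference -2.64, limma adjusted p = 0.043), and 4 were higher and 1 lower with it. Of 18 tested TGFβ response genes, 0 were called without the block. With it 9 were called higher, beside 6.11% of all genes, and 0 lower, beside 3.74%. CYR61, a matricellular protein, was 16.6 and 27.5 FPKM in WT and 46.4 to 74.3 in MSX2_KO (log2 difference 1.48, adjusted p with the block 0.0015). CTGF and LTBP2 had log2 differences of 0.78 and 0.98 (0.0066 and 0.010). The repressors SKI and SMAD6, the highest of the list, had log2 differences of 0.27 (not called, 0.21) and 0.66 (called, 0.036).

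Endothelial genes are known to be lost as the mesenchymal state is gained, and SNAI and ZEB factors are known to repress epithelial genes. Of 21 endothelial genes, all tested, 3 were lower without the block, and these are the ones given next with their values. With the block 8 were lower, beside 3.74% of all genes, and 2 higher, beside 6.11%. Over the 21 the median log2 difference was -0.25, and 5 were positive. CLDN5 (claudin-5) was 115 and 96.0 FPKM in WT and 17.1 to 28.2 in MSX2_KO (log2 difference -2.28, limma adjusted p = 0.012), the VE-cadherin gene CDH5 423 and 379 against 230 to 269 (-0.65, 0.045) and TIE1 505 and 446 against 315 to 323 (-0.58, 0.038). PECAM1, FLT1 and CD34 were not called. Of 15 tested epithelial genes, 0 were called without the block and 6 were called higher with it, beside 6.11% of all genes. KRT19 was 10.6 and 5.46 FPKM in WT, 78.3 and 24.8 in 1# and 112 and 20.6 in 2# (2.45, adjusted p with the block 0.0057). CDH1 (E-cadherin), the textbook target of SNAI1, was 0.920 and 0.158 FPKM in WT and 0.994 to 7.57 in MSX2_KO (1.43, 0.029). In replicate 2, 11 of the 15 were called lower than in replicate 1, beside 18.9% of all genes. KRT8, KRT18, KRT19 and CDH1 were among the 11. Of 12 tested cadherin and junction genes, CDH5 was lower without the block, and 2 were higher and 4 lower with it.

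Markers of other cell types moved with the genotype as well. Of 12 tested hematopoietic genes, 3 were higher without the block, KLF1 and GATA1 among them, and 0 lower. With the block 6 were higher, beside 6.11% of all genes, and 0 lower. The summed level of the hematopoietic list was 153 to 159 FPKM in WT and 260.0 to 570.0 in MSX2_KO. In every library 3 of its 15 genes were under 1 FPKM (PTPRC, MPO and CD33). Of 7 tested mesoderm and neural crest genes, 2 were higher without the block, HAND1 (2.32 and 1.14 FPKM in WT, 9.61 to 22.5 in MSX2_KO) and HAND2 (log2 difference 1.45, limma adjusted p = 0.021). The summed level of this list was 43.4 to 48.6 FPKM in WT and 119 to 186 in MSX2_KO. The 9 pluripotency genes summed to 94.9 to 112 FPKM in WT and 114 to 135 in MSX2_KO, and NANOG and SOX2 did not pass 0.373 FPKM. The part of these shifts in the values of TAGLN, PDGFRB, ACTA2 and ZEB1 was not tested.

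Genes with the pattern closest to each of the 10 were taken by the Euclidean distance of centred log2(FPKM + 1) over the 6 libraries, as a description. They were FGFR3 (0.22) and FBLN2 (0.30) for TAGLN, HTRA3 (0.25) and CMTM5 (0.29) for PDGFRB, and CD72 (0.20) and TCHP (0.20) for ACTA2. FGFR3, an FGF receptor, was 4.73 and 9.93 FPKM in WT and 27.6 to 32.8 in MSX2_KO, and HTRA3, a secreted protease, 9.18 and 15.6 against 25.9 to 33.7. For the factors they were CD72 and PDE6G (0.16 each) for SNAI1, TMEM147-AS1 (0.12) and KRTCAP3 (0.22) for SNAI2, GPT2 (0.061) and PCOLCE (0.12) for TWIST1, DTX1 and PARP9 (0.22 and 0.23) for ZEB1, and CTDSP1 and AP001429.1 (0.28 and 0.30) for ZEB2. CDH2 was closest to PPP1R35 (0.11) and GTF2E2 (0.12), and PDGFRA to NBPF3 (0.099) and FBXL8 (0.18).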

How the data were processed

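RNA-seq of H1-derived cells at day 8 gave 1 deposited table with a column of FPKM values for each of the 6 libraries, and replicates were not pooled. The series' design text names BWA followed by ANOVA and TopHat followed by Cufflinks, the submitters' processing notes name BWA, Bowtie, RSEM and hg19, and which of these made the deposited FPKM is not given in the sources used here. The labels number the clones 7 and 10 without saying which is 1# or 2#. Of the symbols, 97.0% were found in GENCODE 29, whose GRCh38 coordinates are printed as annotation only. The table has 56595 symbols, 342 of them on several rows.

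limma 3.58.1 (R 4.3.3) with a mean-variance trend was run on log2(FPKM + 1), leaving out genes whose mean was under 0.5 FPKM. MSX2_KO was compared with WT in fits that left out or included a block for replicate number, replicate 2 with replicate 1 with genotype as a term, and the interaction of both. The numbers were taken to pair the libraries because the difference between replicates 2 and 1 correlated across genes, which are not independent, between WT and 1# (r = 0.51), WT and 2# (0.54) and the clones (0.64). The fits were run on simulated data with independent noise in each library, no clone effect and added shifts larger than those of ACTA2 and ZEB1. That setting does not speak for spread between clones or for small differences. The 10 genes, the lists and the tests were chosen with earlier results of these data known. The text names the 10 genes, MSX2, the actins, up to 4 called and 2 highest genes of each list, and the 2 closest patterns among genes with an SD of at least 0.3. Others were named after their values were seen, among them PCSK7, FAS, ZEB1-AS1, MYH11, MYOCD, PECAM1, PTPRC, PDGFC, PDGFD, KIT, CSF1R, FLT1, CD34, MPO, CD33, NANOG, SOX2, COL1A2, COL5A1 and COL5A2. Some list genes that this rule names are not reported here. Levels carry no interval for counting error, since the depth is unknown. Promoter windows are 250 bases before RefSeq start sites, matched for 6 of the 10 genes, and motifs were counted over 35116 windows. Alternatives were another pseudocount, filter, scaling and grouping, each clone alone, no trend and leaving out each library.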

Additional observations from a re-analysis of the deposited data

Results flagged for a closer look

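In TAGLN, the difference between replicates 2 and 1 was 1.02 on the log2 scale in WT and -0.027 and -0.044 in 1# and 2#. The signs are opposite, but the MSX2_KO libraries hardly differed, and the difference was -1.06 for MSX2_KO less WT, not called (limma, adjusted p = 0.22). In SNAI2 it was 0.20 in WT and -0.34 and -0.60 in the clones, -0.67 for MSX2_KO less WT (adjusted p = 0.52). WT has 1 library per replicate number in both. Among 65 genes examined for a library far from the other 3 MSX2_KO libraries, ACTG2 alone had one, with 0.706 FPKM in replicate 1 of 2# and at most 0.0645 FPKM in the others. Chance flags about 1 in 20 groups.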

How the results depend on the processing

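With the replicate block the genotype comparison called 1566 genes in place of 204 and 4 of the 10 genes in place of 1. Without the block, it called 125 genes with no filter, 6 with 3 groups, 0 with the libraries of WT and 1# alone (limma, 1193 at an unadjusted p under 0.05) and 1 with those of WT and 2# alone, and 0 of the 10 in each of these. The alternatives to the blocked fit and to the interaction, other than leaving out libraries, were chosen after seeing the data. With the block, it called 507 genes and 0 of the 10 with no filter, and 1003 genes with 3 groups. With the libraries rescaled to the same sum the blocked calls were 885 higher and 855 lower, against 971 and 595 as deposited, and CDH2 turned to -0.014 without and with the block. Leaving out 1 library at a time gave 11 to 76 genes and 0 to 1 of the 10 without the block, 665 to 899 and 1 to 2 with it, where a lone WT library is assumed to vary like the others. Without the block the log2 difference ranged over -0.19 to 0.69 for TWIST1, -0.22 to 0.033 for ZEB2, -0.18 to 0.27 for CDH2 and -0.14 to 0.84 for PDGFRA, all 4 turning sign without WT replicate 2, ZEB2 and CDH2 also without replicate 1 of 1#, and CDH2 without replicate 1 of 2#. The block changed no call of the 10 other than those of ACTA2, PDGFRB and ZEB1.

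Between replicates, 5492 genes were called, 3112 and 3 of the 10 with no genotype term, 3593 with no filter, and 3091 to 4707 with 1 library left out. There the difference ranged from -0.035 to 0.44 for TAGLN and -0.040 to 0.39 for PDGFRB, both turning sign without either WT library. The interaction was called for 3 genes, 0 at a pseudocount of 0.1 (limma, 1817 at an unadjusted p under 0.05) and 693 with no filter, where 1 of the 10, TAGLN, passed (adjusted p = 0.041). No filter keeps 30029 rows. The cause of these changes was not tested. Depth is unknown, so no level near 0 was read as absent.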
